A study of Mus musculus with 14 samples.

Results

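How Notch1+ cells differ from whole retina was set side by side at postnatal day 0 (P0) and embryonic day 14 (E14) of the mouse, so that the quantity of interest is a difference of differences. All 14 samples of the series enter it: 4 of P0 Notch1+ cells, 4 of P0 whole retina, 3 of E14 Notch1+ cells and 3 of E14 whole retina. All came from C57BL/6 mice, and the labels name no transgene, deletion or drug for any group. For the Notch1+ cells, retinas of many eyes were pooled for each preparation and digested with papain. Cells bearing Notch1 on their surface were then pulled out with a biotinylated antibody and magnetic beads. The study does not describe these steps for whole retina, so that a difference in handling cannot be told apart from the comparison. Whole retina still contains the Notch1+ cells, so the 2 members of each comparison overlap in their cells. The stage difference is given throughout as E14 minus P0: the log2 difference of Notch1+ cells from whole retina at E14, minus the same log2 difference at P0. A positive value means that a gene was relatively higher in Notch1+ cells at E14, and a negative value that it was relatively higher in Notch1+ cells at P0. The question it answers is which genes mark or avoid Notch1+ cells at 1 stage only, or change sides between the stages.

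Notch1 is a receptor that is cleaved when a neighbouring cell presents a Delta or Jagged ligand, and its freed intracellular part switches on repressors of the Hes family. In the retina this keeps progenitor cells dividing and delays their differentiation into neurons. Mouse retinal progenitors produce ganglion cells, horizontal cells, cones and the first amacrine cells mostly before birth, and rods, bipolar cells and Müller glia mostly around and after birth. At E14 the newborn neurons of the retina are therefore largely ganglion cells and cone precursors, while at P0 many rod precursors and amacrine cells are present too.

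Each sample was hybridised alone to 1 array, stained with 1 dye, and read as a fluorescence intensity. A spot counted as above background when its foreground median was over the local background median plus 2 SDs of the background. On single arrays this held for 9764 to 10718 mouse probes in P0 Notch1+ cells, 11345 to 13547 in P0 whole retina, 9332 to 10648 in E14 Notch1+ cells and 10609 to 11975 in E14 whole retina. Values below are intensities after normalization across the 14 arrays, listed in the order of the replicate numbers. Replicates are described by the study as independent preparations, and their number limits the precision. The 6 E14 arrays were scanned on 1 day, the P0 Notch1+ arrays on another and the P0 whole retina arrays on yet another, so that scan day and group cannot be told apart at P0 or in the stage difference. A re-dip mark stood in the file headers of 1 of the P0 Notch1+ arrays and all 4 P0 whole retina arrays. At E14 it stood in those of 2 of the 3 Notch1+ arrays and all 3 whole retina arrays. What the mark stands for is not stated in the sources used here.

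Of 13683 probes tested with limma, 338 had a stage difference with an adjusted p under 0.05 (2.47%), and these are the called ones. They covered 292 genes. Of the 338, 208 were positive (1.52% of those tested) and 130 negative (0.95%), so that positive calls made up 61.5%. This split depended on the scaling of the arrays: positive calls made up 88.3% (522 against 69) with a common median, where the median stage difference of all probes shifted to 0.23, 76.8% (344 against 104) with a common 75th percentile, and 77.8% (332 against 95) with the value table of the authors, where the median was 0.16. With the normalization used here that median was 0.004. The P0 comparison alone called 2694 probes (19.7%), and the E14 comparison alone called 808 (5.91%). Most stage differences came from a difference at P0 without a called one at E14: 212 probes were called at P0 only, 77 at E14 only, 20 at both stages in opposite directions, 13 at both in the same direction and 16 at neither stage. For 90 of the 338 probes 1 stage had neither group above background on 2 or more arrays, 77 of them at E14 and 13 at P0, and their stage difference restates the difference of the other stage.

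**Figure D1:**
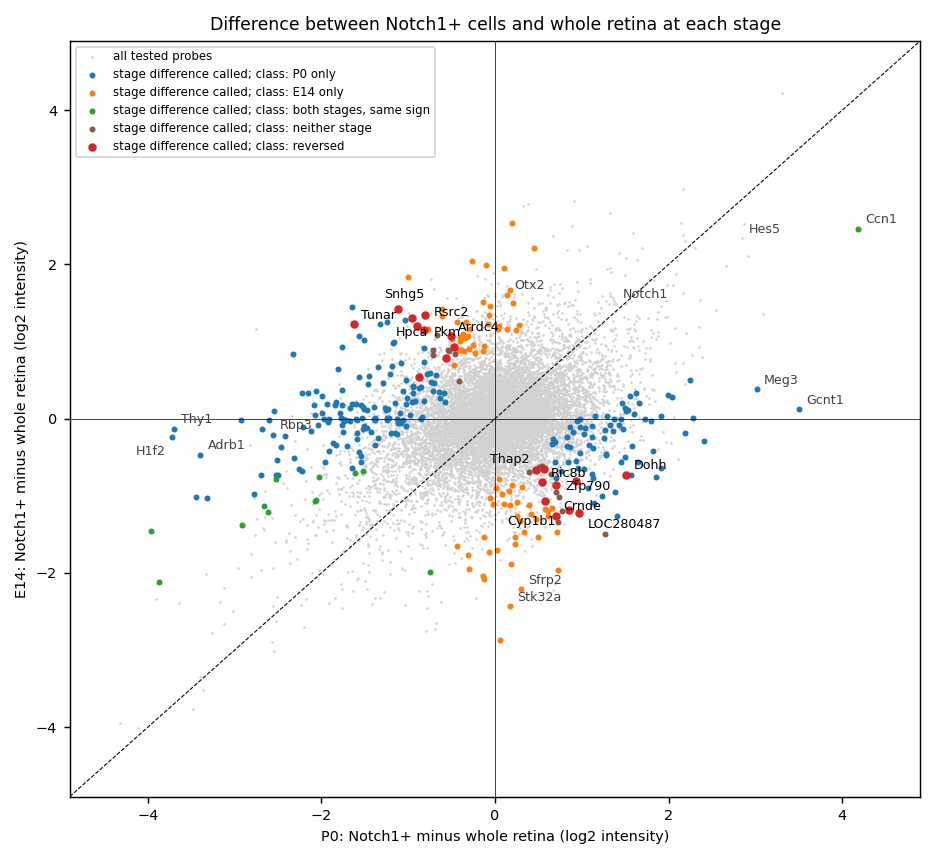
Log2 difference, Notch1+ cells minus whole retina, at P0 (x axis) and at E14 (y axis) for each of the 13683 tested probes, with the 338 called stage differences coloured by the stage or stages at which they were also called. The 20 probes in red lie on opposite sides of 0 at the 2 stages, and the 212 blue ones spread along the P0 axis.

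Genes that changed sides between the stages, with a call at each, were few and of mixed function. The 20 probes called at both stages in opposite directions came from 15 named genes, with 4 probes that had no gene name, and for 13 genes the brightest probe was among them. Of these 13, 6 were lower in Notch1+ cells at P0 and higher at E14, and 7 were the other way round. The class requires a call at P0, a call at E14 in the opposite direction and a called stage difference. Opposite signs without a call at both stages were more common. Of the 212 probes called at P0 only, 78 were lower in Notch1+ cells at P0 and higher at E14, and 54 the other way round. The remaining 63 and 17 were lower or higher at both stages.

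The largest swing was that of Tunar, a long non-coding RNA of neural cells. It measured 348, 229.9, 214 and 299 in P0 Notch1+ cells, against 1026, 944, 426 and 1124 in P0 whole retina, and 899, 729 and 899 in E14 Notch1+ cells, against 396, 349.6 and 334 in E14 whole retina. It was thus lowest in P0 Notch1+ cells and in E14 whole retina, with no overlap between the groups at either stage. Its log2 difference was -1.63 (SE 0.27, adjusted p = 0.000958) at P0 and 1.22 (SE 0.31, adjusted p = 0.0342) at E14, a stage difference of 2.85 (SE 0.41, adjusted p = 0.00484). Snhg5, a host gene of small nucleolar RNAs, measured 406, 845, 399.6 and 337 in P0 Notch1+ cells, against 1305, 664, 1119 and 1046 in P0 whole retina. P0 Notch1+ replicate 2 lay within the range of P0 whole retina. At E14, Snhg5 measured 929, 832 and 619.6 in E14 Notch1+ cells, against 299.8, 262 and 314 in E14 whole retina, for a stage difference of 2.54 (SE 0.43, adjusted p = 0.00933). Hpca encodes hippocalcin, a calcium sensor of neurons. It had intensities of 2598, 1594, 1933 and 1306 in P0 Notch1+ cells, against 4289, 3931, 1936 and 4490.0 in P0 whole retina, with some overlap, and of 1572, 971 and 1325 in E14 Notch1+ cells, against 525, 460.1 and 554 in E14 whole retina, without overlap. This gave a stage difference of 2.26 (SE 0.43, adjusted p = 0.0177).

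Pkm encodes pyruvate kinase, which catalyses the last step of glycolysis. Its intensities were 765, 692, 708 and 449 in P0 Notch1+ cells, against 1173, 829, 1519 and 1091 in P0 whole retina. In E14 Notch1+ cells it reached 487, 613 and 851, and in E14 whole retina 247, 312 and 306. All P0 Notch1+ arrays were below all P0 whole retina arrays and all E14 Notch1+ arrays above all E14 whole retina arrays, and the stage difference was 1.96 (SE 0.36, adjusted p = 0.0142). A dimmer probe of Pkm gave 0.48 (adjusted p = 0.509). Rsrc2, which encodes an arginine- and serine-rich protein, had 2 probes and both changed sides, with stage differences of 2.15 (adjusted p = 0.0139) and 1.35 (adjusted p = 0.009). On the brighter of the 2, it measured 185, 273, 307 and 292 in P0 Notch1+ cells, against 431, 323, 780.0 and 392 in P0 whole retina, and 464, 576 and 391 in E14 Notch1+ cells, against 182, 194 and 179 in E14 whole retina. Arrdc4, an alpha-arrestin, measured 238, 198, 228 and 253 in P0 Notch1+ cells, against 300.1, 289, 382 and 335 in P0 whole retina. At E14 it was above background on no whole retina array and was brighter in Notch1+ cells by at least 1.94-fold (2 of 3 of their arrays above background), with a stage difference of 1.58 (SE 0.26, adjusted p = 0.00852).

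In the opposite direction, Dohh had the smallest p-value of the genes that changed sides. Its product, deoxyhypusine hydroxylase, completes the hypusine modification of a translation factor. Dohh measured 723, 902, 870.5 and 806 in P0 Notch1+ cells, against 263, 324, 305 and 267 in P0 whole retina, and 468, 371 and 511 in E14 Notch1+ cells, against 877, 752 and 608 in E14 whole retina. The 4 groups fell into 2 high ones, P0 Notch1+ cells and E14 whole retina, and 2 low ones, with no overlap at either stage. The stage difference of Dohh was -2.24 (SE 0.25, adjusted p = 0.000664). A second and dimmer probe of Dohh pointed the other way, with a stage difference of 1.13 (adjusted p = 0.11). At P0 the 2 probes were called in opposite directions, the brighter at 1.51 (adjusted p = 3.74e-05) and the dimmer at -0.87 (adjusted p = 0.0174). Crnde, a long non-coding RNA, measured 1131, 929, 793 and 1003 in P0 Notch1+ cells, against 534, 531, 613 and 679.9 in P0 whole retina, and 167, 202 and 229 in E14 Notch1+ cells, against 525, 547 and 369 in E14 whole retina. E14 Notch1+ cells were the lowest of the 4 groups, and the stage difference was -1.97 (SE 0.27, adjusted p = 0.00392). With a common median the P0 difference of Crnde was -0.01 in place of 0.71, so that its change of side rests on the scaling, while its stage difference stayed called.

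Cyp1b1, a cytochrome P450 whose loss causes congenital glaucoma in people, measured 924, 1519.6, 1008 and 655 in P0 Notch1+ cells, against 720.3, 779, 385 and 410.0 in P0 whole retina. P0 Notch1+ replicate 4 lay below 2 of the P0 whole retina arrays. At E14 the groups were apart, with 719, 519 and 617 in E14 Notch1+ cells, against 1287, 1301 and 1623 in E14 whole retina, and the stage difference was -2.04 (SE 0.42, adjusted p = 0.0262). The other 4 genes of this direction were LOC280487 with -2.19, the zinc finger gene Zfp790 with -1.56, Ric8b, a chaperone of G protein alpha subunits, with -1.36, and Thap2, which encodes a protein with a THAP domain, with -1.22 (adjusted p between 0.00846 and 0.0196). LOC280487 overlapped at P0 and the other 3 did not. Zfp790 was above background on no array of E14 Notch1+ cells, where it was at least 1.54-fold lower than in whole retina. Cnep1r1 and Plekhf2 changed sides only on a dimmer probe (stage differences -1.15 and 2.10, adjusted p = 0.0228 and 0.0232), while their brightest probes gave -0.21 and 0.17 and were not called.

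**Figure D2:**
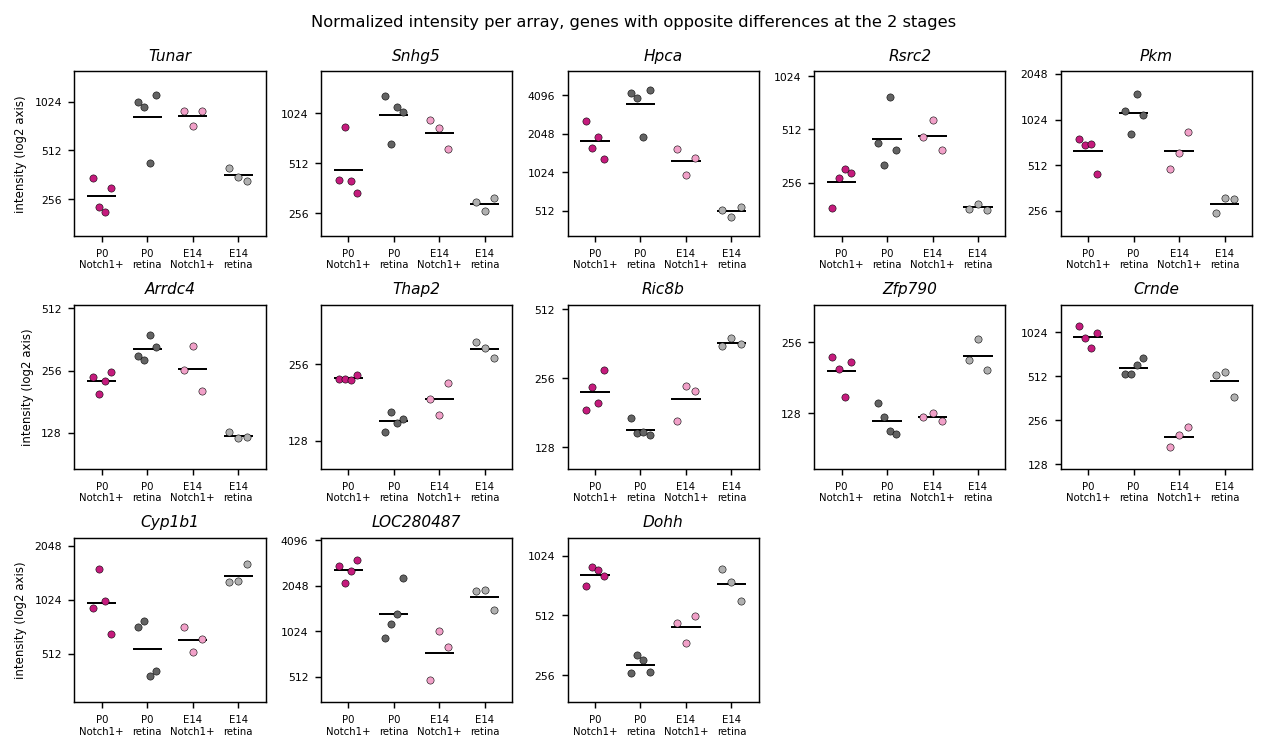
Normalized intensity on each of the 14 arrays (points, log2 axis) with the mean of the log2 values of each group (line), for the 13 genes that differed in opposite directions at the 2 stages on their brightest probe. In the first 6 genes, Tunar to Arrdc4, P0 Notch1+ cells and E14 whole retina are the low groups of their stages, and in the last 7, Thap2 to Dohh, they are the high ones.

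How many probes changed sides depended strongly on the model. Once the re-dip mark entered the fit, 4 probes did so, of which 3 were among the 20. With a common median 23 did, of which 7 were among the 20. Over the 12 other settings and the fits without 1 array, 26 in all, the full set of calls was often lost. It held in 22 for Zfp790 and Crnde, 20 for Thap2, and 19 for Snhg5 and Dohh. It held in 16 for Tunar and Pkm, 14 for Rsrc2 and Ric8b, 13 for Hpca, 11 for Arrdc4, 9 for LOC280487 and 7 for Cyp1b1. The stage difference itself was called for 11 of the 13 genes in each of the 12 other settings and with any 1 array left out. The exceptions were LOC280487, whose call was lost with a common median (adjusted p = 0.0747), a common 75th percentile (0.0542), the value table of the authors (0.06) and without E14 whole retina replicate 1 or 2 (0.0566 and 0.0502), and Cyp1b1, whose call was lost with a common median (0.0741), ordinary least squares (0.0523), and without E14 Notch1+ replicate 2 (0.0658) or E14 whole retina replicate 1, 2 or 3 (0.0581, 0.0527 and 0.0696).

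Genes called higher in Notch1+ cells at E14 and not called at P0 included transcription factors of the developing retina. Of the 77 probes called at E14 only, 39 were relatively higher at E14. Otx2, a homeobox factor that photoreceptor precursors require, was such a gene. In P0 Notch1+ cells it measured 35937, 32802, 33743 and 37307, against 28786, 28239.9, 35084 and 35085 in P0 whole retina. In E14 Notch1+ cells it measured 25458, 18272 and 25669, against 6676, 7481 and 8460.5 in E14 whole retina. The P0 groups overlapped at a high level, whereas E14 whole retina lay below every other array. No spot of Otx2 was saturated. The log2 difference was 0.14 (SE 0.15, adjusted p = 0.567) at P0 and 1.61 (SE 0.18, adjusted p = 0.000291) at E14, and the stage difference 1.47 (SE 0.24, adjusted p = 0.00852), which a common median raised to 2.24.

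Sox21, a Sox transcription factor, measured 132, 102, 142 and 202 in P0 Notch1+ cells, against 139, 186, 154 and 144 in P0 whole retina, with overlap. At E14 it measured 515, 303 and 321 in E14 Notch1+ cells, against 129, 131 and 129 in E14 whole retina, where it was above background on no whole retina array and was brighter in Notch1+ cells by at least 2.74-fold. The stage difference of Sox21 came to 1.65 (SE 0.33, adjusted p = 0.0228). Penk, which encodes the precursor of the enkephalin peptides, measured 144, 159, 169.9 and 135 in P0 Notch1+ cells, against 129, 153, 117 and 129 in P0 whole retina, and 545, 646 and 514 in E14 Notch1+ cells, against 151, 255 and 209 in E14 whole retina. It was thus at like levels in both P0 groups and clearly apart at E14, with a stage difference of 1.29 (SE 0.27, adjusted p = 0.024). Eya2, a coactivator and phosphatase of the eyes absent family, measured 1454, 828 and 639 in E14 Notch1+ cells, against 356, 389 and 337 in E14 whole retina, and at P0 lay between 112 and 154 in both groups, for a stage difference of 1.42 (SE 0.34, adjusted p = 0.0446). A dimmer probe of Eya2 gave 0.51 (adjusted p = 0.415). Lhx3, a LIM homeobox factor, measured 363, 442 and 249 in E14 Notch1+ cells, against 146, 159 and 152 in E14 whole retina, and its stage difference was 1.14 (SE 0.27, adjusted p = 0.0428). Mafk, a small Maf transcription factor, had a stage difference of 1.07 (SE 0.24, adjusted p = 0.0386), a call lost in 11 of the 14 fits without 1 array (adjusted p up to 0.0925). Otx2, Sox21, Eya2, Lhx3 and Mafk are in the network that the study drew up from these same samples, whose genes were named by rule. The share of transcription factors among the 39 probes was not counted.

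**Figure D3:**
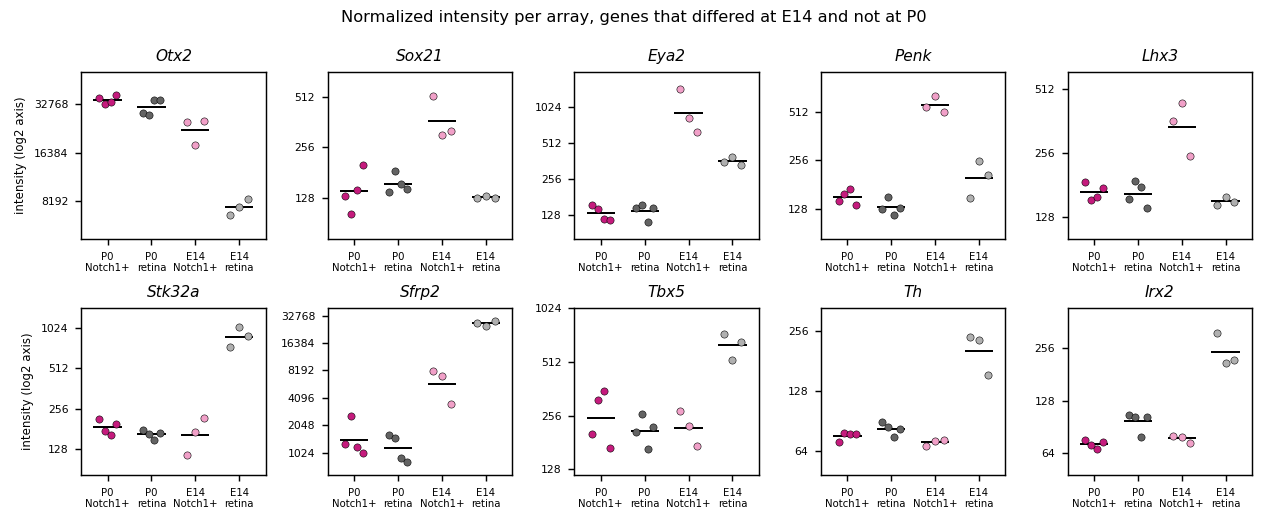
Normalized intensity on each array (points, log2 axis) and group mean of the log2 values (line) for 10 genes whose difference between Notch1+ and whole retina samples was called at E14 and not at P0. In the upper row, E14 Notch1+ cells lie above E14 whole retina, and in the lower row below it, while the P0 groups lie close together.

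The calls of Otx2 held in each other setting and with any 1 array left out. That of Sox21 was lost without E14 whole retina replicate 1, 2 or 3 (adjusted p = 0.0581, 0.0506 and 0.054), that of Penk in 4 of 12 settings and without E14 Notch1+ replicate 2 or E14 whole retina replicate 1 or 3 (adjusted p = 0.0647, 0.0586 and 0.0529), and those of Eya2 and Lhx3 in 12 and 13 of the 14 fits without 1 array, at adjusted p up to 0.0988 and 0.101.

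Among the 38 probes that were called at E14 only and relatively lower there, Stk32a, a serine/threonine kinase gene, was the clearest. It measured 215, 175, 162 and 195 in P0 Notch1+ cells, against 177, 165, 149.9 and 169 in P0 whole retina, and 115, 172 and 218 in E14 Notch1+ cells, against 733, 1036 and 892 in E14 whole retina. Only E14 whole retina was high, and the stage difference was -2.60 (SE 0.30, adjusted p = 0.000779). Dimmer probes of Stk32a gave -0.09 (adjusted p = 0.94) and -0.62 (adjusted p = 0.102). Sfrp2, a secreted antagonist of Wnt signals, was at far higher intensities at E14 than at P0 in both kinds of sample. It measured 1277, 2558, 1184 and 1012 in P0 Notch1+ cells, against 1578, 1495, 881 and 814 in P0 whole retina. At E14 it measured 7991, 7149 and 3536 in E14 Notch1+ cells, against 27502, 25458 and 28472 in E14 whole retina, without overlap. The call of its stage difference, -2.51 (SE 0.50, adjusted p = 0.0228), was lost with a common median (adjusted p = 0.0531) and without E14 whole retina replicate 1 or 3 (0.0581 and 0.0569). Tbx5, a T-box factor of the dorsal retina, measured 272, 224 and 174 in E14 Notch1+ cells, against 735, 525 and 661 in E14 whole retina. Its P0 arrays ranged from 167 to 351, with overlap, and its stage difference was -1.76 (SE 0.38, adjusted p = 0.0282), a call lost in 2 settings and without E14 Notch1+ replicate 2 or 3 (adjusted p = 0.0627 and 0.0577) or E14 whole retina replicate 1 or 3 (0.0774 and 0.0692).

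Some genes of this class were above background at E14 alone. Th, which encodes tyrosine hydroxylase, the rate-limiting enzyme of dopamine synthesis, measured 67.6, 71.5 and 72.7 in E14 Notch1+ cells, against 240.2, 231 and 154 in E14 whole retina, and was above background on no P0 array and on no E14 Notch1+ array. It was at least 1.42-fold lower in E14 Notch1+ cells. Irx2, an Iroquois homeobox factor, was likewise at least 1.69-fold lower there, and Cntn2, an axonal adhesion protein, measured 139, 112 and 154 in E14 Notch1+ cells, against 780.4, 369.8 and 482 in E14 whole retina. Their stage differences of -1.42, -1.22 and -1.65 (adjusted p = 0.00893, 0.021 and 0.0175) restate the E14 differences, since neither P0 group was above background. Rbpms, an RNA-binding protein of ganglion cells, had -1.09 (SE 0.27, adjusted p = 0.0492), a call lost in each of the 14 fits without 1 array (adjusted p up to 0.119), and a dimmer probe of it gave -0.04 (adjusted p = 0.964). As in any sample of mixed cells, fewer cells of a type and less RNA per cell cannot be told apart.

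The largest class were genes called at P0 and not at E14. With 3 arrays a group at E14 and 4 at P0, a missing call at E14 does not mean a missing difference. Of these 212 probes, 71 were relatively higher in P0 Notch1+ cells. Gcnt1, a glycosyltransferase of mucin-type sugar chains, measured 2802, 2675, 2733 and 1501 in P0 Notch1+ cells, against 235, 195, 191 and 212 in P0 whole retina, and 208, 108 and 129 in E14 Notch1+ cells, against 124, 135 and 135 in E14 whole retina. It was above background on 1 array of each E14 group, and its 2 probes had stage differences of -3.38 (adjusted p = 0.000401) and -1.54 (adjusted p = 0.0337). Igf1r, the receptor of insulin-like growth factor 1, measured 1289, 1147, 1861 and 1369 in P0 Notch1+ cells, against 188, 184, 414 and 335 in P0 whole retina. At E14 its arrays overlapped, with 255, 467 and 725 in E14 Notch1+ cells, against 972, 312 and 515 in E14 whole retina, and the stage difference was -2.69 (SE 0.60, adjusted p = 0.0337). Meg3, an imprinted long non-coding RNA, measured 11647, 7697, 7991 and 15926 in P0 Notch1+ cells, against 1588, 529.9, 1909 and 1667 in P0 whole retina. P0 whole retina replicate 2 was well below the other 3. At E14, Meg3 measured 975, 619 and 1368 in E14 Notch1+ cells, against 1084, 601 and 577 in E14 whole retina, and its stage difference was -2.64 (SE 0.62, adjusted p = 0.0423). The calls of Igf1r and Meg3 were lost in 3 and 6 of 12 settings (adjusted p up to 0.0714 and 0.126) and in 9 and 10 of the 14 fits without 1 array (up to 0.0838 and 0.104).

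Lig1, the DNA ligase that seals Okazaki fragments, measured 2619, 2351, 2794 and 2602 in P0 Notch1+ cells, against 617, 437, 816 and 1175 in P0 whole retina, and 1350.2, 1117 and 2438 in E14 Notch1+ cells, against 3079, 2318 and 2503 in E14 whole retina. P0 whole retina was the low group, the other 3 lay higher, and the stage difference was -2.62 (SE 0.44, adjusted p = 0.00929). Dimmer probes of Lig1 gave -0.93 and -0.19 and were not called (adjusted p = 0.218 and 0.785). Among 51 measured genes of S phase and DNA replication, 2 had a called stage difference, both negative (Lig1 and the replication factor Mcm10, -1.90, adjusted p = 0.0438), a share of 3.92% beside 2.83% of all genes with 1 probe each. The median over the list was -0.44, or -0.12 with a common median, and 40 of the 51 values were negative (78.4%, beside 49.7% of all genes). Of 55 genes of G2 and mitosis 1 was called, Troap, with -1.52 (adjusted p = 0.0359), and the median was -0.26, which a common median turned to 0.11. Mcm10 and Troap were no longer called in 11 and 10 of the 14 fits without 1 array (adjusted p up to 0.0999 and 0.0915). Chromatin regulators among the calls were the histone demethylase gene Kdm2a with -2.67 (adjusted p = 0.0262) and the histone methyltransferase gene Kmt2a with -1.36 (adjusted p = 0.0285). Kdm2a was no longer called without E14 Notch1+ replicate 1 or 2 (0.0544 and 0.0658) or E14 whole retina replicate 1 or 3 (0.0697 and 0.0668), nor Kmt2a in 7 of the 14 such fits (up to 0.0708) or with a common median, where its value was -0.74 (adjusted p = 0.237). Of 52 chromatin remodelers and corepressors on the list, it was the only one called. Further large negative values were those of Zbtb14, a zinc finger factor (-2.54), Tbrg1 (-2.37), Ireb2, which encodes an iron-responsive RNA-binding protein (-2.34), Atf6b, a factor of the unfolded protein response (-2.30), and Ttll4, a tubulin glutamylase (-2.27), at adjusted p between 0.00889 and 0.0405. Zbtb14 and Atf6b kept their calls without any 1 array, while those of Tbrg1, Ireb2 and Ttll4 were lost in 12, 5 and 7 of the 14 fits (adjusted p up to 0.0981, 0.0656 and 0.0656). A dimmer probe of Tbrg1 pointed the other way, at 0.89 (adjusted p = 0.614).

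On the other side, 141 of the 212 probes were relatively lower in P0 Notch1+ cells, among them genes of photoreceptors. Of 49 genes of phototransduction and photoreceptor structure 46 were on the array and 30 passed the filter on background. Of these 30, 10 were above background on P0 whole retina arrays alone (7 of the called ones), so that they passed the filter only through the group where they are high, and their sign and part of the share called are set by that. A stage difference was called for 14 of the 30 (46.7%, beside 2.83% of all genes), each positive, from 0.99 to 2.65. The count fell to 7 with the re-dip mark in the fit, to 8 with the replicate block, and to 9 positive and 1 negative with the value table of the authors. The median over the 30 genes was 1.30, beside 0.004 over all genes. At P0, 24 of the 30 were called lower in Notch1+ cells (80.0%, beside 11.6% of all genes). At E14, 1 of the 30 was called lower (3.33%, beside 3.69%), close to the share of all genes. For 20 of the 30, neither E14 group was above background on 2 or more arrays, and of the 14 called genes 3 were measured at both stages (Rbp3, Rom1 and Unc119), so that for the other 11 the stage difference restates that of P0. The summed intensity of the list was 8311 to 10711 in P0 Notch1+ cells, 25748 to 44113 in P0 whole retina, 5331 to 5810 in E14 Notch1+ cells and 5983 to 8060 in E14 whole retina.

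Rbp3 encodes the retinoid-binding protein of the matrix between photoreceptors and pigment epithelium. It measured 719, 813, 1229 and 686 in P0 Notch1+ cells, against 5047, 4459, 6969.8 and 3829.7 in P0 whole retina, and 198, 139 and 173 in E14 Notch1+ cells, against 172, 200.3 and 213 in E14 whole retina. P0 whole retina was far above the other 3 groups, and the stage difference was 2.35 (SE 0.34, adjusted p = 0.00484). Sag, the arrestin that shuts off rhodopsin, measured 172, 172, 214 and 188 in P0 Notch1+ cells, against 1291, 473, 1285 and 699 in P0 whole retina, and was above background on no E14 array. Pde6g, the inhibitory subunit of the rod phosphodiesterase, measured 144, 155, 147 and 126 in P0 Notch1+ cells, against 378, 1768, 1329 and 540.2 in P0 whole retina, and was also above background on no E14 array. Prph2, a structural protein of outer segment discs, measured 194, 237, 196 and 149.9 in P0 Notch1+ cells, against 477, 498, 1416 and 1263 in P0 whole retina. Their stage differences were 2.11, 2.65 and 2.11 (adjusted p = 0.0192, 0.0285 and 0.0389), and that of Rcvrn, which encodes the calcium sensor recoverin, was 2.07 (SE 0.21, adjusted p = 0.000401). Calls of Pde6g and Prph2 were lost in 6 and 10 of the 14 fits without 1 array (adjusted p up to 0.071 and 0.0855), and that of Sag without E14 whole retina replicate 2 or 3 (0.0501 and 0.0506) and with the value table of the authors (0.0734).

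Promoters of these genes are shown because Otx2 and Crx, the homeobox factors of photoreceptors, bind the core TAATCC. Whether either factor has a part in the stage differences was not tested. Promoters from RefSeq (GRCm38.p6, 250 bases before to 50 bases after the start of the gene) were at hand for 11 of the 14 called photoreceptor genes, some with several promoters. TAATCC on either strand lies in 42.9% of their 14 promoters, and in 7.06% of all 32851 promoters of the same length. Over all called genes with a positive stage difference it lies in 9.78% of 184 promoters. Photoreceptor genes without a call were not compared, so that the share is not tied to the stage difference. Of the 11 genes 6 hold a match, and only promoters with a match are printed. Capitals mark the match, which is written as GGATTA where it lies on the opposite strand. The match begins 69 bases before the start of Rbp3, 87 before Sag, 19 before Gnat2 (cone transducin) and 57 before Guca1a (an activator of guanylate cyclase). A match describes the letters only. Rbp3 lies at chr14:33953753-33954052 on the plus strand, Sag at chr1:87803430-87803729 on the plus strand, Gnat2 at chr3:108092816-108093115 on the plus strand and Guca1a at chr17:47400557-47400856 on the minus strand.
Rbp3: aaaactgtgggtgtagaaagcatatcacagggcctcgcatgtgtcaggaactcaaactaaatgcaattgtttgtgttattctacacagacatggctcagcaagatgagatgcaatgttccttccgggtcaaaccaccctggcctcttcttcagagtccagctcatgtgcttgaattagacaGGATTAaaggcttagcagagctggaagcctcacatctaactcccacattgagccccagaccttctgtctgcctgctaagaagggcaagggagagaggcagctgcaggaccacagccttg
Sag: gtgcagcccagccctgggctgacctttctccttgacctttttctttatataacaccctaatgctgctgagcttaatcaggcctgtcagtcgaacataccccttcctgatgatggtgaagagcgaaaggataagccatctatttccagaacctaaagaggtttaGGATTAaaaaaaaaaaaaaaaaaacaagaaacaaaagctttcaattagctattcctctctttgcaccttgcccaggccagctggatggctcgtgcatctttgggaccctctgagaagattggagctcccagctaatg
Gnat2: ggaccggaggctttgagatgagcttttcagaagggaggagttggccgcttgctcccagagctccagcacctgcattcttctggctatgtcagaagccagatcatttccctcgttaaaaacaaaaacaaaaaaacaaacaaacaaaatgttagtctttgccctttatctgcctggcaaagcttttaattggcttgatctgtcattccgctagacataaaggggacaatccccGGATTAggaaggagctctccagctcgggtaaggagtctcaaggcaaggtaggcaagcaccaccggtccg
Guca1a: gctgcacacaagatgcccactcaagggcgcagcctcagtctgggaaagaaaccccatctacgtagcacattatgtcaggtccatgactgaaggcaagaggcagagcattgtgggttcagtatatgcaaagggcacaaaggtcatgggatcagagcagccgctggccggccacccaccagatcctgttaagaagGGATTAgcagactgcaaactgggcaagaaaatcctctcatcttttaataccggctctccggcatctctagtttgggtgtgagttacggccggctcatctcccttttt

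Among 12 measured transcription factors of photoreceptors, 1 had a called stage difference, Otx2, and the median of the list was 0.46. Crx measured 355, 552, 598 and 708 in P0 Notch1+ cells, against 1124, 1682, 2744 and 588 in P0 whole retina, and 867, 767 and 311 in E14 Notch1+ cells, against 299, 381 and 374 in E14 whole retina, with overlap at both stages. Its stage difference of 2.06 was not called (adjusted p = 0.113, 95% interval 0.66 to 3.46), and it was called with a common median (2.51, adjusted p = 0.0374) and without P0 whole retina replicate 4 (2.44, adjusted p = 0.0466).

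Other large positive values were those of genes above background in P0 whole retina alone, 3 of them from the lists of inner retinal neurons (Thy1, Gad1 and C1ql2). Thy1, a surface protein of ganglion cells, measured 132, 86.9, 95.6 and 70.5 in P0 Notch1+ cells, against 2257, 1067, 619 and 1489.9 in P0 whole retina. Its stage difference was 3.57 (SE 0.48, adjusted p = 0.00353). Adrb1, the beta-1 adrenergic receptor and on none of the lists, measured 79.4, 98.6, 74.2 and 74.1 in P0 Notch1+ cells, against 754, 856, 1183 and 693 in P0 whole retina, at least 5.95-fold lower in Notch1+ cells. Gad1, which makes the transmitter GABA, measured 113, 96.1, 91.6 and 81.5 in P0 Notch1+ cells, against 610.0, 585, 507 and 766 in P0 whole retina, at least 4.25-fold lower. C1ql2, a secreted C1q-like protein, was at least 5.03-fold lower. The stage differences of Adrb1, Gad1 and C1ql2 were 2.93, 2.55 and 2.59 (adjusted p = 0.000235 for each). Like Thy1, these genes passed the filter on background only through P0 whole retina, the group where they are high. Their sign is set by that, and their stage differences restate those of P0. A second probe of Adrb1 gave 0.63 (adjusted p = 0.132).

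Meis2 and Isl2 had a group above background at both stages. Meis2, a homeobox factor of amacrine cells, measured 229, 162, 214 and 220.3 in P0 Notch1+ cells, against 865, 623, 615 and 839 in P0 whole retina, and 391, 224 and 278 in E14 Notch1+ cells, against 281, 244 and 229 in E14 whole retina. Its 2 probes had stage differences of 2.04 and 1.64 (adjusted p = 0.00576 and 0.0117). Isl2, a LIM homeobox factor of ganglion cells, was not above background in any P0 Notch1+ sample and at least 3.81-fold lower there, while at E14 its arrays overlapped, with 579.9, 334 and 282 in E14 Notch1+ cells, against 217, 458 and 273 in E14 whole retina. The stage difference of Isl2 was 2.48 (SE 0.50, adjusted p = 0.0232), a call lost without E14 Notch1+ replicate 1 (adjusted p = 0.0538) or E14 whole retina replicate 1 or 3 (0.0671 and 0.0608). Of 28 amacrine and horizontal cell genes 5 had a positive and 1 a negative called stage difference (21.4%, beside 2.83% of all genes), with a list median of 0.18. Of the 28, 4 were above background in P0 whole retina alone, and 3 of these were called, so that part of the share is set by the filter. Of the 6 called genes 2 were measured at both stages, and for the rest the stage difference restates that of 1 stage. Of 26 ganglion cell transcription factors 2 were positive and 1 negative (11.5%, median -0.12). Of 9 bipolar cell genes that passed the filter 3 were positive (Cabp5, Lhx3 and Gng13, 33.3%, beside 2.83% of all genes, list median -0.08). The calls of Gng13 and Lhx3 were lost in 14 and 13 of the 14 fits without 1 array (adjusted p up to 0.102 and 0.101). With the replicate block 1 of the 9 was called. Of the 9, 3 were above background in P0 whole retina alone, and 1 of these was called (Cabp5), with its sign set by the filter. Of 53 genes of the neuronal cytoskeleton, axons and ganglion cells 1 was positive and 2 negative (5.66%, median -0.08). The last list was lower in Notch1+ cells at both stages, with 35 of 53 genes called lower at P0 (66.0%, beside 11.6% of all genes) and 24 at E14 (45.3%, beside 3.69%). Of 32 Müller glia and radial progenitor genes limma called 0 stage differences, while 8 had an unadjusted p under 0.05, beside 1683 of all 8882 genes.

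**Figure D4:**
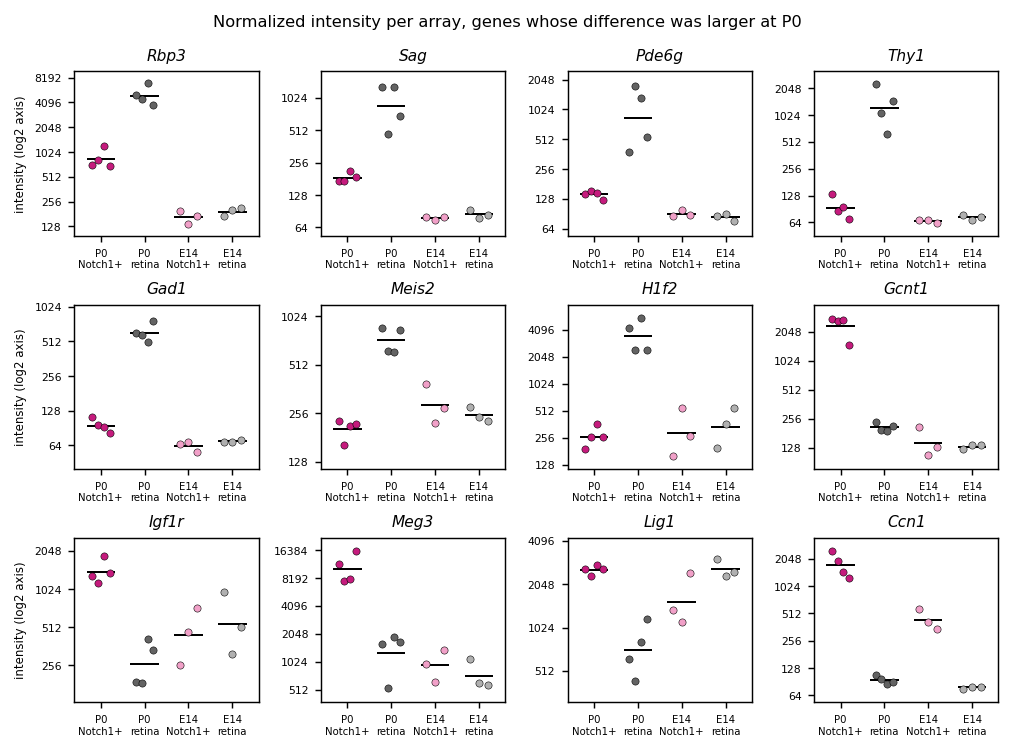
Normalized intensity on each array (points, log2 axis) and group mean of the log2 values (line) for 12 genes that set Notch1+ cells and whole retina further apart at P0 than at E14. Rbp3 to H1f2 are highest in P0 whole retina, and Gcnt1 to Meg3 in P0 Notch1+ cells. For Lig1, P0 whole retina is the low group, and Ccn1 is above background in Notch1+ cells only.

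Further genes with large positive values had no list in common. H1f2, a linker histone, measured 192, 261, 362 and 262 in P0 Notch1+ cells, against 4334, 2435, 5586 and 2425 in P0 whole retina, and 161, 555 and 264 in E14 Notch1+ cells, against 197, 362 and 543 in E14 whole retina. P0 whole retina was high and the other 3 groups were at like levels, with a stage difference of 3.48 (SE 0.63, adjusted p = 0.0139). Ppp1r14a, an inhibitor of myosin phosphatase, was lower in Notch1+ cells at P0, with 270.0, 459, 309 and 96.7 in P0 Notch1+ cells, against 1130.4, 1228, 1483 and 1161 in P0 whole retina, and its E14 arrays measured 3643, 3574 and 3279 in Notch1+ cells, against 1683, 1836 and 2405 in whole retina. The stage difference of Ppp1r14a was 3.17 (SE 0.54, adjusted p = 0.00933). Igf2, a fetal growth factor, measured 461, 608, 383 and 273 in P0 Notch1+ cells, against 2322, 1428, 1295 and 915 in P0 whole retina. At E14 its groups overlapped, and the stage difference was 2.69 (SE 0.54, adjusted p = 0.0228), a call lost without E14 Notch1+ replicate 1 (adjusted p = 0.0544) or E14 whole retina replicate 1 or 2 (0.0648 and 0.0566). Phlda1, a pleckstrin homology domain gene, measured 393, 524, 241 and 212 in P0 Notch1+ cells, against 1112, 989.9, 757 and 973 in P0 whole retina, and 1588, 2291 and 3545 in E14 Notch1+ cells, against 1231, 1099 and 1015 in E14 whole retina, with no overlap at either stage and a stage difference of 2.65 (SE 0.45, adjusted p = 0.00933). At E14 neither Ppp1r14a nor Phlda1 was called (adjusted p = 0.28 and 0.0834), so that they do not count among the genes that changed sides.

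Gapdh, a glycolytic enzyme often used as a constant gene, measured 2459, 12297, 4701 and 4002 in P0 Notch1+ cells, against 15925, 24415, 21071 and 17241 in P0 whole retina, and 26657, 23324 and 23024 in E14 Notch1+ cells, against 18659, 18420.5 and 22734 in E14 whole retina. The stage difference was 2.28 (SE 0.55, adjusted p = 0.0458), a call that was lost in 13 of the 14 fits without 1 array (adjusted p up to 0.102). Of 17 housekeeping genes 2 were called (11.8%, beside 2.83% of all genes), Gapdh and the cyclophilin gene Ppia, and neither was called with the re-dip mark in the fit or with the replicate block. Rps2, a protein of the small ribosomal subunit, measured 2262, 3146, 3184 and 2687 in P0 Notch1+ cells, against 12379.8, 22297, 14146 and 14509.9 in P0 whole retina, and its stage difference was 2.10 (SE 0.31, adjusted p = 0.0059). Of 73 ribosomal protein genes 2 were called, both positive (Rps2 and Rpl34, 2.74%), and the median was 0.43, beside 0.004 over all genes. Of 67 oxidative phosphorylation subunits 2 were called, both positive (Atp5b with 2.41 and Ndufb2 with 1.69, 2.99%), and the median was 0.43. Calls of Rpl34 and Ndufb2 were lost in 11 and 7 of the 14 fits without 1 array (adjusted p up to 0.0981 and 0.0838). These shares are close to that of all genes, and with a common median, measured from the shifted median of all probes, the lists stood at 0.97 for ribosomal proteins and 0.66 for oxidative phosphorylation.

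A difference of the same direction and unequal size was called for 13 probes, 12 of them lower in Notch1+ cells at both stages. The 1 that was higher at both stages was Ccn1, a matrix-bound signalling protein and immediate early gene. It measured 2492, 1931, 1451 and 1272 in P0 Notch1+ cells, against 108, 97.4, 86.2 and 90.0 in P0 whole retina, and 567, 414 and 348 in E14 Notch1+ cells, against 76.2, 80.3 and 79.5 in E14 whole retina. It was above background on no whole retina array of either stage, and was brighter in Notch1+ cells by at least 13.3-fold at P0 and by at least 3.23-fold at E14 (2 of 3 of their arrays above background). Its stage difference of -1.72 (SE 0.32, adjusted p = 0.017) is thus one between 2 lower bounds. With the value table of the authors it was -0.01 (adjusted p = 0.995), with a common median -1.25 (0.0871) and with a common 75th percentile -1.40 (0.0505). A second probe of Ccn1 gave -0.90 (adjusted p = 0.0622). Of 39 immediate early genes 3 had a called stage difference (7.69%, beside 2.83% of all genes), with a list median of 0.12, while 15 were called higher in Notch1+ cells at P0 (38.5%, beside 8.55% of all genes) and 14 at E14 (35.9%, beside 2.44%).

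Receptors, ligands and repressors of the Notch pathway on the lists had no called stage difference. Notch1, by whose protein the cells were selected, measured 50999, 16413, 28473 and 36611 in P0 Notch1+ cells, against 9718, 12698, 12126 and 12296 in P0 whole retina, and 21070.3, 31869 and 23910.3 in E14 Notch1+ cells, against 11354, 7375 and 8681 in E14 whole retina. It was higher in Notch1+ cells on every array at both stages, by 1.39 (SE 0.29, adjusted p = 0.00422) at P0 and by 1.49 (SE 0.33, adjusted p = 0.0174) at E14 on the log2 scale. Its stage difference was 0.10, with a 95% interval of -0.85 to 1.04 (adjusted p = 0.941). Hes5, a repressor that Notch switches on, measured 7126, 7349, 11359 and 6994 in P0 Notch1+ cells, against 1402, 1029.6, 1504 and 719 in P0 whole retina, and 9999.9, 1884 and 4068 in E14 Notch1+ cells, against 952, 749 and 830.0 in E14 whole retina, with a stage difference of -0.51 (95% interval -1.82 to 0.81). Of 10 Notch receptors and ligands, 11 Hes, Hey and Id repressors and 10 proneural factors, limma called 0 stage differences. The list medians were -0.24, -0.09 and 0.16, and 5, 1 and 5 members had an unadjusted p under 0.05, beside 1683 of all 8882 genes. With a common median 1, 1 and 2 were called, all positive, and the medians were 0.28, 0.36 and 0.72. The intervals are wide enough to hold stage differences of more than 1 on the log2 scale.

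Dll3, a Delta-like ligand of newborn neurons, measured 545, 1028, 468 and 1252 in P0 Notch1+ cells, against 420.5, 446, 320.4 and 441 in P0 whole retina, and 4375, 2388 and 1422 in E14 Notch1+ cells, against 282, 618 and 241 in E14 whole retina. Atoh7, the proneural factor that ganglion cells require, measured 1791, 1035, 1622 and 806 in P0 Notch1+ cells, against 396, 732, 402 and 533 in P0 whole retina, and 37306, 26867 and 31513 in E14 Notch1+ cells, against 4608, 7220.2 and 3686 in E14 whole retina. Its level was far higher in both E14 groups than in both P0 groups, and it was higher in Notch1+ cells at each stage without overlap. The stage differences of Dll3 and Atoh7 were 1.92 (adjusted p = 0.115, 95% interval 0.61 to 3.22) and 1.35 (adjusted p = 0.132, 95% interval 0.38 to 2.31), neither of them called. Dll1, Hes1 and Neurog2 had -0.74, -1.21 and -2.27, at adjusted p of 0.646, 0.471 and 0.148. In the network of 56 genes that the study drew up from these same samples, and which is therefore no independent evidence of direction, 5 were positive (Sox21, Otx2, Eya2, Lhx3 and Mafk) and 7 negative, among them Gcnt1, Igf1r, Meg3, Pacsin3, the nucleolar gene Mybbp1a and the zinc finger gene Zfp13 (21.4% in all, beside 2.83% of all genes). This split depended on the scaling, with 16 positive and 2 negative with a common median, 7 and 3 with a common 75th percentile, and 9 and 2 with the value table of the authors. Dimmer probes of Pacsin3 gave 0.63 and -0.09, and one of Mybbp1a -0.13, and none of these was called (adjusted p = 0.409, 0.913 and 0.91).

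**Figure D5:**
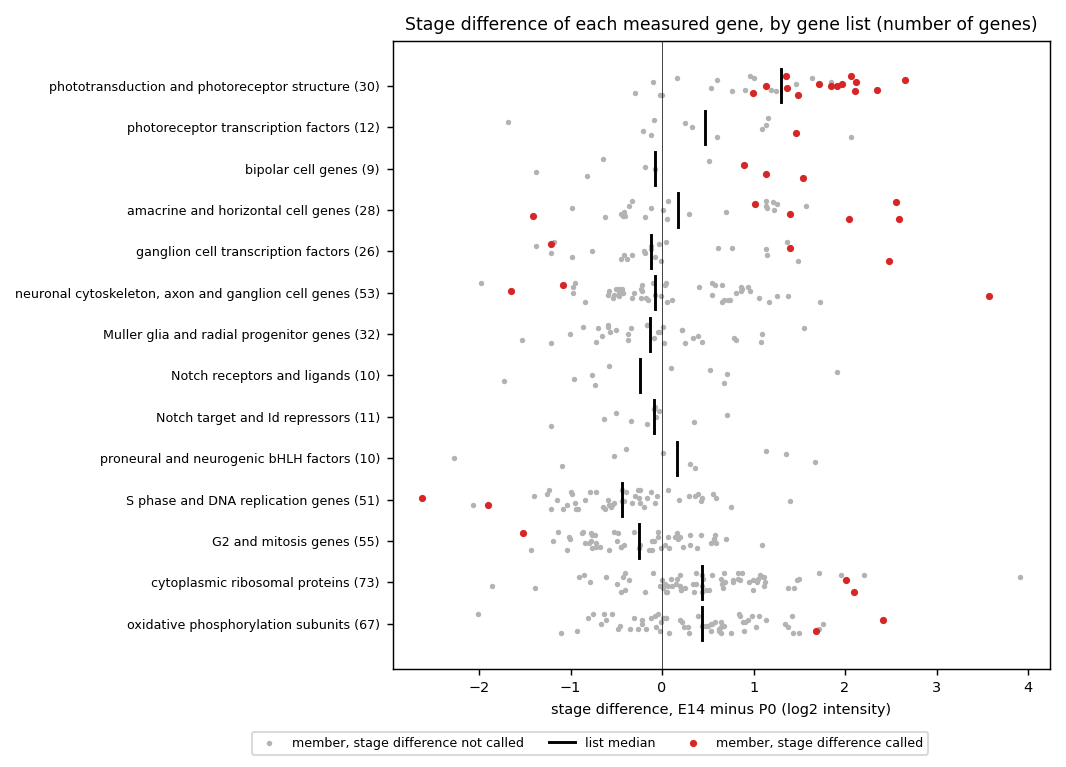
Stage difference (E14 minus P0, log2) of each measured gene in 14 gene lists, 1 point per gene, with called genes in red and the list median as a bar. The photoreceptor list lies to the right, with 14 of 30 genes called and a median of 1.30, and the 3 lists of the Notch pathway and proneural factors hold no called gene.

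Markers of cells from outside the neural retina were followed beside these results. The summed intensity of 7 lens genes was 623 to 2095 in P0 Notch1+ cells, 980 to 1899 in P0 whole retina, 546 to 589 in E14 Notch1+ cells and 934 to 5322 in E14 whole retina, and no lens gene was above background on any E14 Notch1+ array. That of 5 red blood cell genes was 412 to 757 in P0 Notch1+ cells, 601 to 2448 in P0 whole retina, 1739 to 2493 in E14 Notch1+ cells and 2649 to 9384 in E14 whole retina. Of these genes limma called 0 stage differences, with 1 of the 7 and 0 of the 5 at an unadjusted p under 0.05, beside 1683 of all 8882 genes. The median stage differences were -0.89 and -0.80. In the E14 comparison alone, 3 of the 7 lens genes were called lower in Notch1+ cells (42.9%, beside 3.69% of all genes). The summed intensity of 15 endothelial and pericyte genes was 4445 to 9475 in P0 Notch1+ cells, 3304 to 3787 in P0 whole retina, 2944 to 6168 in E14 Notch1+ cells and 2416 to 2648 in E14 whole retina, so that it was higher in Notch1+ cells without overlap at both stages. Of these 15, Tie1, Pecam1 and Cldn5 were called higher at P0, and limma called 0 stage differences (0 at an unadjusted p under 0.05, list median 0.29). At E14, 9 of the 15 were above background on no whole retina array. Of 8 microglia and macrophage genes, Cd72 was called, with -1.41 (SE 0.22, adjusted p = 0.00724), and it was no longer called with a common median, a common 75th percentile, cyclic loess or the value table of the authors (adjusted p from 0.0619 to 0.75). The part of these cells in the stage differences was not tested.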

How the data were processed

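Each of the 14 arrays was stained with 1 dye and read in GenePix Pro 4.1.1.4, per the file headers. The deposited scanner files hold foreground and background intensities that the authors had not normalized, and the value table deposited by the authors holds log2 values (array medians 4.59 to 5.17) whose scaling is not given in the sources used here. Spots marked bad were left out, and limma 3.58.1 in R 4.3.3 applied normexp (offset 50) to the medians, then quantile normalization over 34312 mouse probes and log2. Probes that exceeded background on 3 or more arrays (13683) entered 1 limma model of the 4 group means, with Benjamini-Hochberg adjustment over all of them and a threshold of 0.05. The fit was checked on simulated data. Where a group had no array above background, a fold is a lower bound, set against the lowest probe above background on each array. Probes were named through RefSeq (22987 by accession, and 10758 stayed without a symbol), and a gene stands for its brightest tested probe. Named genes were those that changed sides, the 12 largest of each sign measured at both stages, the 5 largest of each sign among the others, up to 4 called members of each list and genes tabulated by the study. Rcvrn, Rom1, Unc119, Gnat2 and Guca1a were named after their values were seen. Members and lists were chosen with earlier results of these data known. Alternatives were other background corrections, scalings, filters and models, and leaving out each array.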

Additional observations from a re-analysis of the deposited data

Results flagged for a closer look

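Stage differences were called for 338 probes, by a test of the difference itself between the stages. The genes that changed sides, called also at P0 and at E14 in opposite directions, had stage differences (E14 minus P0, log2) of 2.85 for Tunar, 2.54 for Snhg5, 2.26 for Hpca, 2.15 for Rsrc2, 1.96 for Pkm, 1.58 for Arrdc4, -1.22 for Thap2, -1.36 for Ric8b, -1.56 for Zfp790, -1.97 for Crnde, -2.04 for Cyp1b1, -2.19 for LOC280487 and -2.24 for Dohh.

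Single samples far from the rest of their group were sought in the P0 groups of 4, since groups of 3 are too small. Of 100 such groups, from 50 genes, 6 held one, and chance gives about 1 in 20. P0 Notch1+ replicate 4 was low for Gcnt1, at 1501, against 2675 to 2802 on the other 3 arrays. P0 Notch1+ replicate 3 was high for Hes5, at 11359, against 6994 to 7349. P0 Notch1+ replicate 1 was low for Th, at 70.5, against 77.2 to 78.5, all below background. P0 whole retina replicate 2 was low for Meg3, at 529.9, against 1588 to 1909. P0 whole retina replicate 3 was low for Hpca, at 1936, against 3931 to 4490, and for Irx2, at 79.3, against 103 to 106, all below background.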

How the results depend on the processing

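Positive and negative calls numbered 522 and 69 with a common median, 344 and 104 with a common 75th percentile, 332 and 95 with the value table of the authors, 389 and 197 without a filter, and 126 and 68 with the re-dip mark in the fit, beside 208 and 130. Probes that changed sides numbered 35, 36 and 4 with the value table, without a filter and with the re-dip mark, beside 20. Probes called at P0 numbered 4098, 4449 and 1231 with a common median, without a filter and with the re-dip mark, beside 2694, and probes called at E14 1740 without a filter, beside 808. The cause was not tested.

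Replicate numbers did not pair the samples: deviations of same-numbered arrays correlated at -0.06 to 0.08, and 2 of 4 P0 and 0 of 3 E14 Notch1+ arrays correlated best with their own number. The fit with the replicate block called 122 positive and 73 negative stage differences.

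Without 1 array, positive calls ranged from 87 to 198, negative ones from 42 to 127, probes that changed sides from 5 to 17, calls at P0 from 1983 to 2768 and at E14 from 436 to 799. Total calls fell to 177 and 165 without E14 Notch1+ replicate 1 or 2, to 135, 169 and 135 without E14 whole retina replicate 1, 2 or 3, and to 224 and 199 without P0 Notch1+ replicate 3 or 4. Without P0 whole retina replicate 1 or 4, negative calls fell to 81 and 85, and without replicate 1 or 3, probes that changed sides to 12 and 13. Fewer samples were then fitted.

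Of the 338 calls, 179 to 329 were also called in each of the 12 other settings and 126 to 267 without 1 array. Of them, 5 changed sign with the values of the authors. Of 76 named genes with a call, 31 kept it in every setting and without any 1 array, and none of the 1968 alternative values changed direction. Th and Irx2 were not tested without an E14 whole retina array, since too few arrays were left above background. Probes near background limit the low side of many differences, and 3 or 4 arrays a group limit all.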
